A study of Mus musculus with 14 samples.

Results

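The MYC, MAX and MXD network is a family of transcription factors that pair with each other through a basic helix-loop-helix and leucine zipper domain. Its members were taken here as the rows of the expression table named Myc, Max, Mxd1, Mxd4, Mxi1, Mnt, Mlx and Mga, which are 8 genes of the 55536 listed and of the 48363 with values. All 8 passed the filter on low values, which asked for at least 10 normalized counts in 2 libraries.

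The values come from RNA-seq of mouse regulatory T cells (Tregs), sorted as CD4+ FOXP3-YFP+ cells from pooled spleen and lymph nodes of untreated mice. The 5 cKO libraries are from miR-15/16 fl/fl mice carrying Foxp3 Cre, in which the cluster miR-15a/16-1 and the cluster miR-15b/16-2 both carry loxP sites and are deleted once Foxp3 is expressed, and the 4 WT libraries are from miR-15/16 wt/wt mice that also carry Foxp3 Cre. The 3 CD25hi and 2 CD25lo libraries are Tregs of miR-15/16 wt/wt mice, again with Foxp3 Cre, sorted by the level of CD25, the alpha chain of the IL-2 receptor. All 4 groups thus share the Foxp3 Cre allele, which also carries the YFP used for the sort. The methods describe mice matched for age and sex, taken at a younger or an older age, and which age applied to these libraries is not given in the sources used here. The samples were described as biological replicates. The comparison of cKO with WT Tregs asks what changes without miR-15/16, and that of CD25lo with CD25hi Tregs what differs between Tregs with low and high CD25 when the miRNAs are present.

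Libraries held 30055573 to 35226685 reads in genes. The genes of the 4 deleted miRNAs were listed at 0 in every library and do not check the deletion. Dleu2, which hosts miR-15a/16-1, ranged from 2121.4 to 2712.6 normalized counts over the cKO group and from 86.3 to 1099.7 over the WT group. Foxp3 was abundant in every group, with a lowest group mean of 15420 normalized counts in CD25lo Tregs. It was lower there than in CD25hi Tregs (log2 fold change -0.57, adjusted p = 0.0016 from limma). In cKO against WT Tregs its log2 fold change was -0.07 (adjusted p = 0.63 from limma). Il2ra, which encodes CD25, fell in both comparisons, with log2 fold changes of -0.75 for cKO (adjusted p = 1.5e-05 from limma) and -1.43 for CD25lo Tregs (adjusted p = 4.8e-07 from limma). Xist put the 5 cKO libraries and WT replicate 3 as female and the other 8 libraries as male, so by Xist the cKO and WT libraries were not matched for sex. WT replicate 4 stood apart in its immediate early level, the mean log2 value of 22 immediate early and heat shock genes, which was 11.88 against 13.44 to 13.70 in the others of its group. The cKO libraries spread from 12.35 to 13.66 on that measure, and the CD25-sorted libraries from 11.67 to 12.22.

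MYC drives growth and metabolism when T cells are activated. It does so as a dimer with MAX, which binds the E-box CACGTG and recruits coactivators. MXD1, MXD4, MXI1 and MNT also pair with MAX, bind the same E-box and recruit SIN3 corepressors with histone deacetylases, so they oppose MYC at shared sites. MLX pairs with MXD1, MXD4, MNT and the glucose-sensing partner MondoA (Mlxip), and MGA pairs with MAX and belongs to a variant Polycomb complex (PRC1.6).

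The deleted miRNAs share a seed, bases 2 to 8 from the 5′ end, which is shown in capitals in the mature sequences because target sites in 3′ UTRs pair with it (RefSeq, GRCm38.p6). miR-15a-5p lies at chr14:61632075-61632096 on the minus strand and miR-15b-5p at chr3:69009775-69009796 on the plus strand. miR-16-5p is encoded at chr14:61631936-61631957 on the minus strand and at chr3:69009918-69009939 on the plus strand.
miR-15a-5p: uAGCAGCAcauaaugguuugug
miR-15b-5p: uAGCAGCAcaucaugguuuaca
miR-16-5p: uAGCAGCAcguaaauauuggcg

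Matches to this seed were searched on the transcript strand as TGCTGCT, which pairs with all 7 seed bases, or as GCTGCTA, in which an A follows 6 paired bases, and as both together (8 bases), in the longest annotated 3′ UTR of each member (GENCODE, GRCm38). The 4 members that recruit SIN3 each held 1 match, and Myc, Max, Mlx and Mga held 0. Each site is given with its flanking bases and the match in capitals. The site lies in Mxd1 at chr6:86647750-86647774 (minus strand), in Mxd4 at chr5:34174458-34174483 (minus strand), in Mxi1 at chr19:53374010-53374034 (plus strand) and in Mnt at chr11:74843687-74843712 (plus strand).
Mxd1: acttcaatgGCTGCTActcctgact
Mxd4: caaaatagcTGCTGCTAtgtcctcca
Mxi1: catcaaataTGCTGCTggggaagga
Mnt: ctgtgctgtTGCTGCTAttgctctgt
The matches in Mxd4 and Mnt are of 8 bases. Of 12731 tested genes with an annotated 3′ UTR, 27.8% held a match and 4.46% one of 8 bases, over a median UTR of 1140 bases. The UTRs of the 4 members with a match are longer than that median, at 3829 bases for Mxd1, 3105 for Mxd4, 4074 for Mxi1 and 2405 for Mnt, and the 4616 bases of Mga held none. A match is a description of the sequence and no measure of binding.

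The E-box CACGTG, which reads the same on both strands, was searched in the RefSeq promoters (250 bases before to 50 after each start site, GRCm38.p6), because MYC, MXD and MNT dimers bind it and the network can act on its own genes. Of the 7 members in the promoter table, Max, Mxd4, Mnt and Mlx held 1 each and Mxd1, Mxi1 and Mga held 0. Myc is not in that table. Windows around the E-box, in capitals, lie at chr12:76962236-76962261 (minus strand) for Max, chr5:34187914-34187939 (minus strand) for Mxd4, chr11:74830791-74830816 (plus strand) for Mnt and chr11:101087240-101087265 (plus strand) for Mlx.
Max: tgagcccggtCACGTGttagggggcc
Mxd4: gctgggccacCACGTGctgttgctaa
Mnt: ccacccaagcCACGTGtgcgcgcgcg
Mlx: tgggttggatCACGTGactgagcctc
The first base of the E-box stood at −3 from the start site in Max, −219 in Mxd4, −123 in Mnt and −40 in Mlx. Of all 32851 promoters in the table, 7.15% held this E-box, and of its 27025 genes 8.09% did.

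Per kilobase of exon (the union of all annotated exons), Myc was the most abundant member, with a mean over the 14 libraries of 2308 normalized counts per kilobase. Max followed at 1349 and Mxd4 at 1218, then Mlx at 891, Mnt at 669.6, Mxd1 at 655, Mga at 478.7 and Mxi1 at 131.1. Myc stood above Max in all 14 libraries and Mga above Mxi1 in all 14. Max and Mxd4 were not separated beyond their spread, since Max was higher in 11 libraries, and neither were Mnt and Mxd1, where Mnt was higher in 8. The order depends on the length used. Divided by the longest coding transcript, Mxd4 (2668) and Max (2500) came next to Myc (2682), and Mxd1 (992.8) stood above Mlx (906.5).

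**Figure D1:**
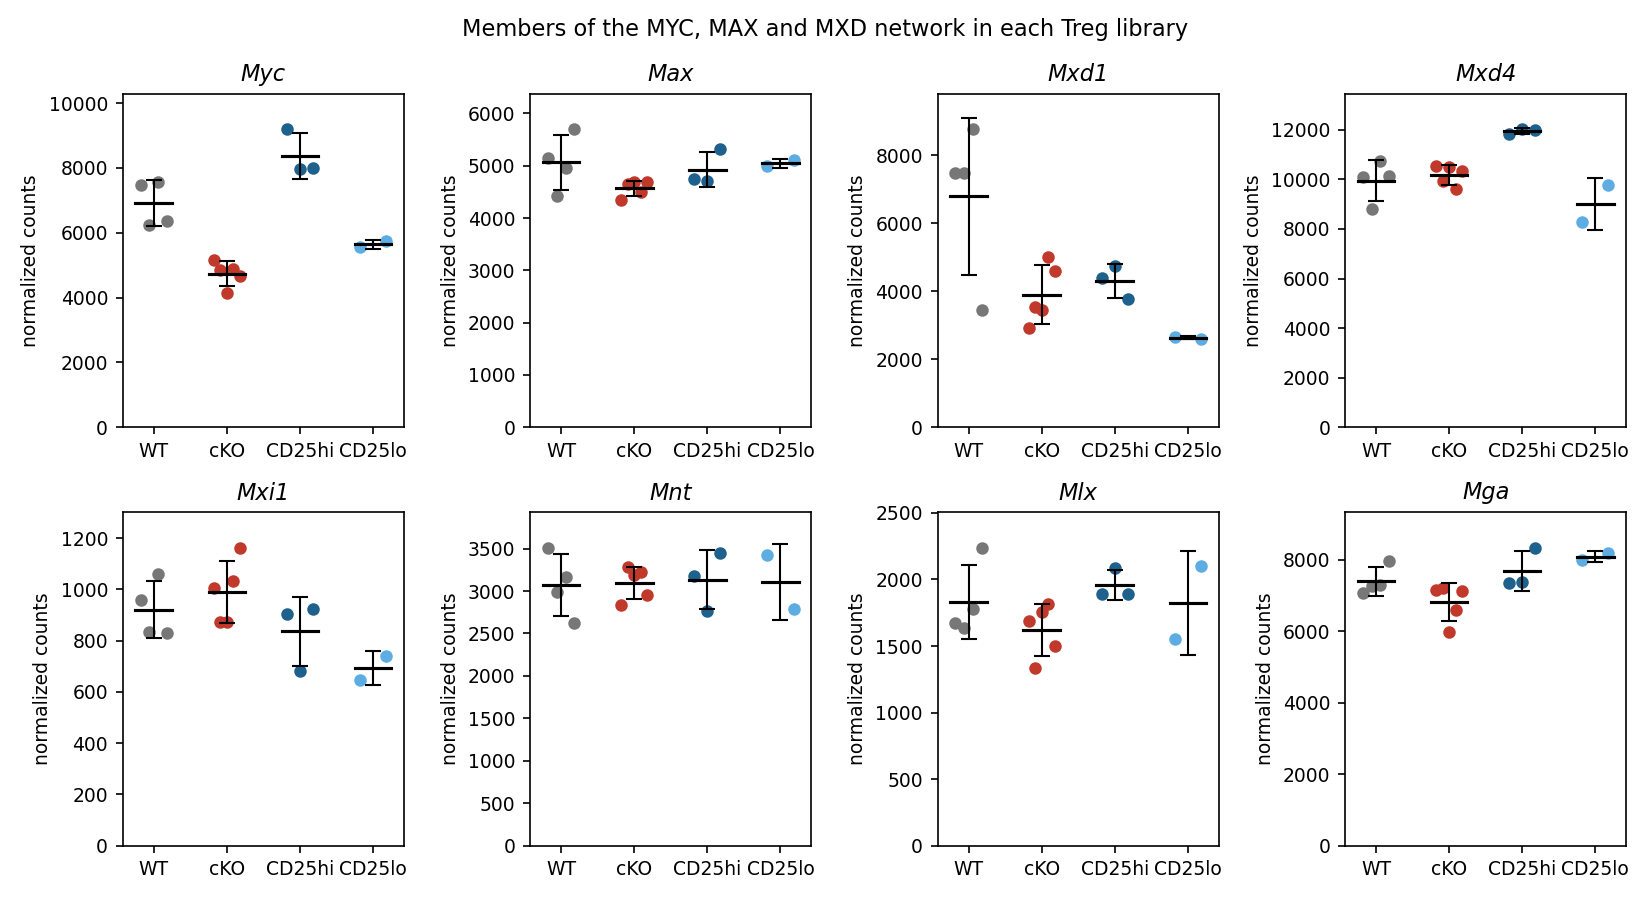
Normalized counts (vertical axis, linear from 0) of each member in every library (points), with the group mean (bar) and SD (whiskers), for 4 WT, 5 cKO, 3 CD25hi and 2 CD25lo libraries. Myc is lower in every cKO library than in every WT library and lower in both CD25lo libraries than in the 3 CD25hi libraries. Mxd4 and Mxd1 are also lower in both CD25lo libraries than in the 3 CD25hi libraries. Between WT and cKO both overlap, and 1 WT library at 3453.1 lies within the cKO range of Mxd1.

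In cKO against WT Tregs, Myc and Mxd1 fell and 0 members rose in limma, edgeR and DESeq2, in limma also at an unadjusted p under 0.05. This is 2 of 8 members called, where 3.52% of the 16241 genes tested were called, 2.04% as higher and 1.48% as lower. Calls here are those of limma on log2(normalized count + 1) with a Benjamini-Hochberg adjusted p under 0.05, taken over all genes tested, and fold changes are on that scale. The groups did not overlap for 1 member, Myc, and for 8.54% of all genes. In CD25lo against CD25hi Tregs, Myc and Mxd4 fell and again 0 members rose in limma, edgeR and DESeq2, also at an unadjusted p under 0.05, which is 2 of 8 called, where 1.62% of genes were called, 0.61% higher and 1.01% lower. The CD25-sorted groups did not overlap for 3 members, Myc, Mxd1 and Mxd4, and for 24.5% of all genes. All of the libraries are of bulk RNA, in which fewer cells that express a gene and less RNA per cell cannot be told apart.

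Myc (chromosome 15, 61985391 to 61990374, plus strand) was at 7484.6, 6230.0, 7579.5 and 6358.5 normalized counts in WT replicates 1 to 4, and at 5167.1, 4851.9, 4146.3, 4881.0 and 4660.4 in cKO replicates 1 to 5. It was at 9196.1, 7954.1 and 7986.9 in the CD25hi libraries and at 5553.8 and 5741.7 in the CD25lo libraries. The lowest library of WT Tregs thus lay above the highest of cKO Tregs, and the same held for CD25hi over CD25lo Tregs. Such a separation, in either direction, was seen for 8.54% of all genes tested in the cKO and 24.5% in the CD25lo comparison. The cKO mean was 68.6% of the WT mean (log2 fold change -0.54, 95% confidence interval -0.71 to -0.38, adjusted p = 7.6e-04 from limma). The CD25lo mean was 67.4% of the CD25hi mean (log2 fold change -0.57, 95% confidence interval -0.79 to -0.34, adjusted p = 0.0116 from limma). The difference of these effects, which share no library, was 0.02 on the log2 scale (95% confidence interval -0.26 to 0.31, adjusted p = 0.960 from limma). The effects may differ by as much as that interval allows. In Myc, the cKO effect passed in all 12 other settings and in all 14 fits without 1 library. With sex as a term, in which the cKO libraries are set against WT replicate 3, the only female WT library, it was -0.68 (adjusted p = 0.0429 from limma). The CD25lo effect on Myc did not pass when only those 5 libraries were fitted (adjusted p = 0.171 from limma), or without CD25lo replicate 1 (0.0694) or 2 (0.0770).

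Max (chromosome 12, 76937269 to 76962201, minus strand), the obligate partner of MYC, did not pass in either comparison. Its values spanned 4429.3 to 5698.7 normalized counts in WT, 4337.5 to 4681.7 in cKO, 4710.9 to 5318.5 in CD25hi and 4988.2 to 5105.8 in CD25lo Tregs, so the groups overlapped. The log2 fold change was -0.14 in cKO Tregs (95% confidence interval -0.29 to 0.01) and 0.04 in CD25lo Tregs (95% confidence interval -0.17 to 0.24). Both intervals lie above the Myc values of the same comparison.

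Mxd1 (chromosome 6, 86647042 to 86669161, minus strand), which is induced in differentiating cells and opposes MYC, was at 7471.1, 7478.2, 8768.9 and 3453.1 normalized counts in WT replicates 1 to 4. In cKO replicates 1 to 5 it was at 2922.2, 3537.8, 3443.6, 4998.0 and 4611.2. WT replicates 1 to 3 lay above every cKO library, and WT replicate 4 lay among them. The log2 fold change was -0.74 (95% confidence interval -1.17 to -0.32), with an adjusted p of 0.0499 from limma, and the cKO mean was 57.5% of the WT mean. Of the 14 fits without 1 library, 2 kept the call, those without WT replicate 4 (log2 fold change -1.04, adjusted p = 2.7e-04 from limma) and without cKO replicate 4, and in the other 12 the adjusted p ran up to 0.151. Without WT replicate 4, 8 of the 22 immediate early and heat shock genes were also called lower in cKO Tregs (median -0.56), against 1 with all libraries (median -0.27), and 3 of 9 myeloid markers tested (median -2.73), against 0 in limma with all libraries (median -2.09). Over all genes tested, 1.70% were called lower without WT replicate 4 (median 0.04) and 1.48% with all libraries (median 0.05).

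Mxd1 is given here beside the immediate early level of each library. WT replicate 4, with the lowest Mxd1 of the WT libraries, had the lowest immediate early level of the bulk libraries (11.88), and cKO replicates 4 and 5, with the highest Mxd1 of the cKO libraries, had the highest levels of theirs (13.32 and 13.66). The CD25hi libraries did not follow this order across groups, with 3767.3 to 4743.5 normalized counts of Mxd1 at levels of 11.67 to 11.85, above cKO replicate 1 with 2922.2 at 12.35 and CD25lo replicate 1 with 2667.8 at 12.22. Among the 5 bulk libraries above 13, Mxd1 was at 7471.1 to 8768.9 in WT replicates 1 to 3 and at 4998.0 and 4611.2 in cKO replicates 4 and 5, a log2 fold change of -0.72 (adjusted p = 0.0092 from limma). The cut at 13 was chosen after seeing the data and leaves out WT replicate 4. That fit also held the CD25-sorted libraries, which share in its estimate of spread. With the immediate early level as a term the cKO effect on Mxd1 was -0.61 (adjusted p = 5.6e-04 from limma). The mean log2 level of myeloid markers was also high in WT replicates 1 to 3, at 6.87 to 7.48, against 5.52 in WT replicate 4, and spanned 4.32 to 6.81 over cKO libraries. Of 9 myeloid markers tested, 0 passed in limma and edgeR and 1 in DESeq2. In limma 7 had a negative cKO value, 5 of them at an unadjusted p under 0.05, and the sum of the list spanned 2983 to 9686 normalized counts in WT and 2966 to 7436 in cKO libraries. The sum of 7 B cell markers was higher in the cKO libraries, at 994.2 to 1314 against 536.4 to 968.5, where 0 of 6 tested passed in limma (2 higher at an unadjusted p under 0.05) and edgeR and 1 in DESeq2. The cKO mean was higher for Cd79b (623.4 against 280 in WT), Cd22 (434.8 against 325) and Pax5 (70.26 against 58.4). It was lower for Cd79a (19.14 against 39.32), Ms4a1 (4.22 against 14.03) and Blk (12.02 against 21.6). The mean log2 level of the list overlapped, at 4.54 to 5.40 in cKO and 3.66 to 5.57 in WT libraries. The part of the marker levels in the Mxd1 and Myc results was not tested. With sex as a term the Mxd1 value was -1.20 (adjusted p = 0.219 from limma).

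**Figure D2:**
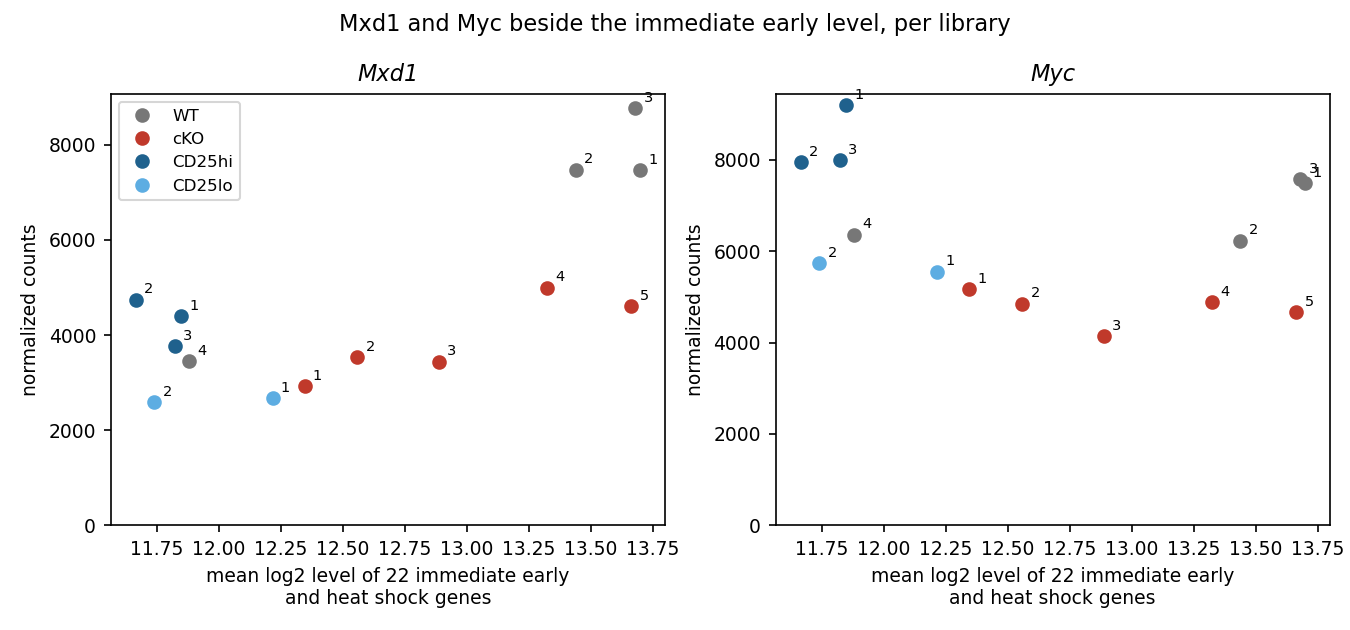
Normalized counts of Mxd1 (left) and Myc (right) in each of the 14 libraries against the immediate early level (mean log2 value of the 22 genes), with the replicate number beside each point. WT replicate 4 lies with the CD25-sorted libraries on the horizontal axis and at 3453.1 for Mxd1, while its Myc value of 6358.5 is within the range of the other WT libraries.

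In the CD25-sorted libraries Mxd1 was at 4394.4, 4743.5 and 3767.3 normalized counts in CD25hi and at 2667.8 and 2597.8 in CD25lo Tregs. These groups did not overlap, as for 24.5% of all genes tested. The log2 fold change of -0.70 (95% confidence interval -1.28 to -0.12) did not pass (adjusted p = 0.255 from limma), in a fit whose spread for Mxd1 is shared with the WT libraries. Without WT replicate 4 the same contrast had an adjusted p of 0.0332 from limma, and with the immediate early level as a term it was -0.82 (adjusted p = 0.0011 from limma). The cKO and CD25lo effects on Mxd1 differed by -0.04 (adjusted p = 0.973 from limma).

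Mxd4 (chromosome 5, 34173883 to 34187720, minus strand), a MAX partner of resting and differentiated cells, had the highest counts of the repressor members. It was at 11838.0, 12026.3 and 12012.3 normalized counts in CD25hi and at 8281.6 and 9765.6 in CD25lo Tregs. The 3 CD25hi libraries were tightly grouped above every other library of the series, and CD25lo replicate 1 was the lowest. The log2 fold change was -0.41 (95% confidence interval -0.60 to -0.22, adjusted p = 0.0248 from limma), with a CD25lo mean of 75.5% of the CD25hi mean. In the same comparison the sum of 6 CD8 T and NK cell markers was 842.0 to 854.9 in CD25lo and 450.2 to 797.3 in CD25hi libraries, where 0 of 5 tested passed in limma (2 higher at an unadjusted p under 0.05) and edgeR and 1 in DESeq2, and the part of these cells was not tested. The Mxd4 call was lost when only those 5 libraries were fitted (adjusted p = 0.263 from limma), without any 1 of the 3 CD25hi libraries (0.0540 to 0.0649) and without CD25lo replicate 1 (log2 fold change -0.29, adjusted p = 0.213 from limma).

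In the bulk libraries Mxd4 was at 10117.9, 8799.6, 10755.2 and 10140.5 normalized counts in WT and at 10542.4, 9921.5, 10492.4, 9596.9 and 10326.1 in cKO Tregs. The groups overlapped, and the log2 fold change was 0.03 (95% confidence interval -0.10 to 0.17, adjusted p = 0.860 from limma). The cKO effect on Mxd4 stood 0.45 above the CD25lo effect on the log2 scale (95% confidence interval 0.21 to 0.68). That difference did not pass (adjusted p = 0.0612 from limma). It passed with DESeq2 (adjusted p = 0.0071), among genes with a mean of at least 100 normalized counts (0.0406 from limma) and with the immediate early level as a term (0.0380 from limma). Of the 8 members, 0 passed the test of the difference in limma and in edgeR and 1, Mxd4, in DESeq2. Of all genes tested, limma called 1.03% (0.671% with the higher and 0.363% with the lower cKO effect). In edgeR 175 of 16241 genes were called, and in DESeq2 564 of 15200. Mxd4 was also the only member at an unadjusted p under 0.05 in limma.

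Mxi1 (chromosome 19, 53310506 to 53375810, plus strand), also called MXD2, was the least abundant member and did not pass in either comparison. It spanned 828.3 to 1059.3 normalized counts in WT, 872.1 to 1162.2 in cKO, 681.4 to 923.9 in CD25hi and 645.6 to 740.8 in CD25lo Tregs. Its log2 fold changes were 0.10 (95% confidence interval -0.18 to 0.39) and -0.26 (95% confidence interval -0.65 to 0.12). Mnt (chromosome 11, 74830920 to 74845725, plus strand), the repressor partner of MAX that is expressed in most cells, had the smallest fold changes of the 8. Its log2 fold changes were 0.02 in cKO Tregs (95% confidence interval -0.18 to 0.21) and -0.01 in CD25lo Tregs (95% confidence interval -0.28 to 0.26), over values of 2623.8 to 3510.1 in WT, 2840.9 to 3279.3 in cKO, 2765.4 to 3452.2 in CD25hi and 2791.6 to 3421.6 in CD25lo Tregs. Mnt and Mxd4, the members with an 8-base match to the deleted miRNAs, were thus both near 0 in cKO Tregs.

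Mlx (chromosome 11, 101087277 to 101092207, plus strand) had log2 fold changes of -0.17 in cKO Tregs (95% confidence interval -0.42 to 0.08) and -0.12 in CD25lo Tregs (95% confidence interval -0.46 to 0.22), and neither passed. It spanned 1632.6 to 2238.4 normalized counts in WT, 1336.4 to 1813.4 in cKO, 1892.3 to 2088.1 in CD25hi and 1549.4 to 2100.3 in CD25lo Tregs. Mga (chromosome 2, 119897228 to 119969581, plus strand) spanned 7059.8 to 7966.9 in WT, 5964.5 to 7202.1 in cKO, 7339.4 to 8331.9 in CD25hi and 7983.3 to 8186.1 in CD25lo Tregs. With log2 fold changes of -0.12 (95% confidence interval -0.27 to 0.02) and 0.08 (95% confidence interval -0.12 to 0.27), Mga did not pass either. Mlx overlaps Psmc3ip on the other strand (29.1 to 206.9 normalized counts) and Mxd1 overlaps Gm44292 on its own strand (32.9 to 422.9), so a small part of their reads could belong to either gene.

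**Figure D3:**
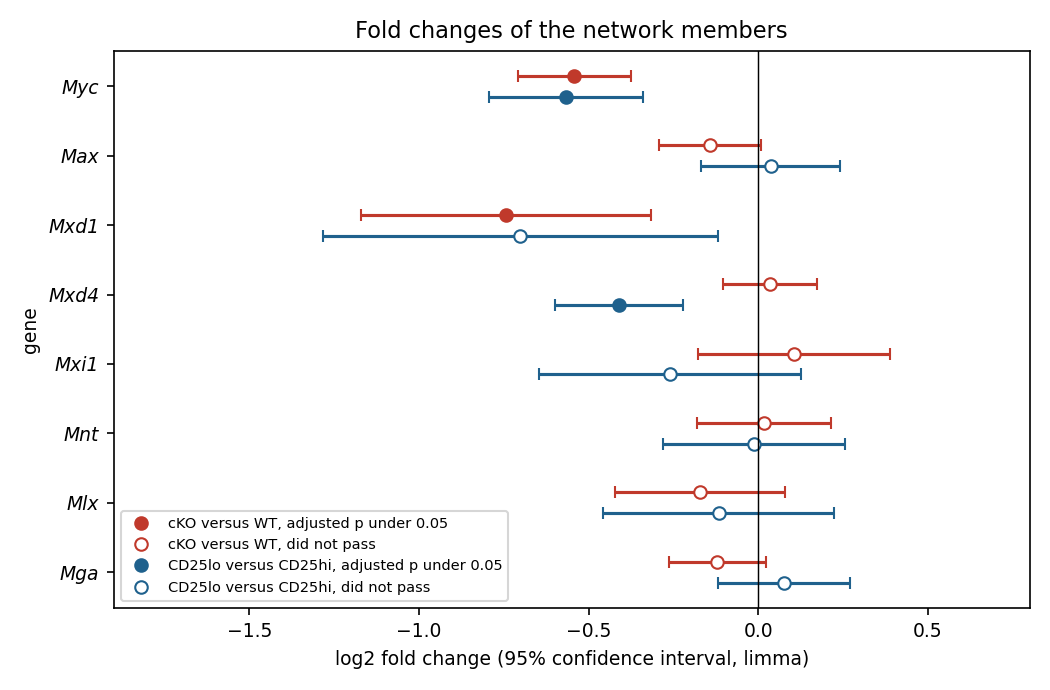
Log2 fold changes of the members (points) with 95% confidence intervals from limma, for cKO against WT (red) and CD25lo against CD25hi Tregs (blue), where filled points had an adjusted p under 0.05. Myc lies at -0.54 and -0.57, Mxd1 at -0.74 and -0.70 with wide intervals, Mxd4 at 0.03 and -0.41, and the intervals of the other 5 members include 0.

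The balance of Myc against its antagonists was described by the log2 ratio of Myc to the sum of Mxd1, Mxd4, Mxi1 and Mnt, each per kilobase of exon, with no test. WT Tregs had a mean ratio of -0.20 ± 0.13 (SD, n = 4) and cKO Tregs one of -0.56 ± 0.15 (SD, n = 5). For CD25hi Tregs it was 0.13 ± 0.11 (SD, n = 3), and for CD25lo Tregs -0.09 ± 0.01 (SD, n = 2). The highest cKO library, at -0.35, lay below the lowest WT library, at -0.32. The difference of -0.36 between cKO and WT Tregs was smaller than the Myc difference itself, as the sum in the denominator holds Mxd1, which was lower in cKO Tregs as well. Without the division by length the same difference was also -0.36. CD25hi Tregs alone held more Myc than the summed repressors on this scale, which depends on the length used, since with the longest coding transcript the CD25hi mean was -0.44.

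**Figure D4:**
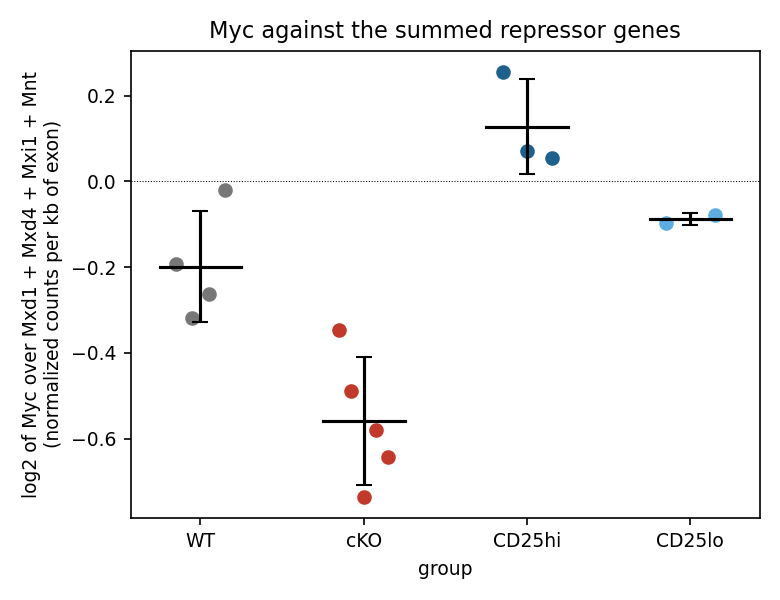
Log2 ratio of Myc to the sum of Mxd1, Mxd4, Mxi1 and Mnt in normalized counts per kilobase of exon (vertical axis), with a point for each library, the group mean (bar) and SD (whiskers). The cKO libraries span -0.74 to -0.35 and the WT libraries -0.32 to -0.02, and the 3 CD25hi libraries lie above 0 at 0.05 to 0.25.

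Of the network genes outside the members, Mycl was listed at 0 in all libraries and Mycn reached at most 3.1 normalized counts, so Myc was the MYC paralog seen in these Tregs. Mxd3, an MXD gene of proliferating cells, was low, at 91.5 to 141.3 normalized counts in WT, 100.4 to 193.0 in cKO, 111.6 to 283.2 in CD25hi and 55.5 to 69.6 in CD25lo Tregs. Its log2 fold change in CD25lo Tregs was -1.30 (standard error 0.55, adjusted p = 0.298 from limma). Mlxip (MondoA) had log2 fold changes of 0.04 and 0.03, and its paralog Mlxipl was at 0 in the 4 WT libraries and at most at 21.6 normalized counts elsewhere.

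The lists of cofactor genes hold 6 to 15 members each, in which 3.52% of all genes tested called in cKO and 1.62% in CD25lo Tregs leave few calls to be seen, so a count of 0 or 1 is given as a description. Of 15 genes for MYC coactivators and the MYC-binding factor MIZ1 (Zbtb17), 0 passed in either comparison in limma, edgeR or DESeq2, with medians of -0.04 in cKO and 0.04 in CD25lo Tregs beside medians over all genes tested of 0.05 and 0. At an unadjusted p under 0.05, 3 were lower in cKO and 1 higher in CD25lo Tregs. Of 6 SIN3 corepressor genes, 0 passed in limma, edgeR or DESeq2 and 1 was lower at an unadjusted p under 0.05 in CD25lo Tregs, with medians of 0.00 and -0.04. Of 9 PRC1.6 partners of MGA, 1 fell in CD25lo Tregs, Tfdp1, a dimer partner of E2F factors, by 0.77 on the log2 scale (adjusted p = 0.0173 from limma), and 0 passed in cKO Tregs in limma, edgeR or DESeq2, also at an unadjusted p under 0.05.

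Among 14 genes for MYC protein turnover, 2 passed in cKO Tregs in limma. In CD25lo Tregs 0 passed in limma and edgeR and 3 in DESeq2, and 3 were at an unadjusted p under 0.05 in limma. Stub1, a ubiquitin ligase that acts on MYC, rose by 0.37 on the log2 scale (2190 ± 176.6 normalized counts, SD, n = 5, against a WT mean of 1696, adjusted p = 0.0490 from limma). Gsk3a, a paralog of the kinase that marks MYC for degradation, fell by 0.24 on the log2 scale (4810 ± 184.5 normalized counts, SD, n = 5, against a WT mean of 5700, adjusted p = 0.0344 from limma). Both calls were easily lost, with 11 of 26 alternatives keeping Stub1 and 15 of 26 keeping Gsk3a, and with sex as a term neither passed.

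Of 42 growth genes that MYC is known to activate, in ribosome biogenesis, nucleotide and amino acid supply and the cell cycle, 5 fell and 1 rose in cKO Tregs, and 7 fell and 0 rose in CD25lo Tregs in limma. In edgeR 3 and 7 fell, in DESeq2 7 and 12 fell, and in both 0 rose in CD25lo Tregs. Of all genes tested, limma called 1.48% lower in cKO and 1.01% in CD25lo Tregs, and 2.04% and 0.61% higher. The lower shares were 1.40% and 0.887% in edgeR and 2.64% and 2.59% in DESeq2. The median log2 fold change was -0.13 in cKO Tregs, beside 0.05 over all genes tested, and -0.32 in CD25lo Tregs, beside 0. The values were negative for 36 of the 42 in cKO Tregs, where 43.0% of all genes tested were negative, and for 38 of the 42 in CD25lo Tregs, where 48.0% were. The cKO background depends on the method. In edgeR and DESeq2, 36 were again negative in cKO Tregs, where 48.8% and 49.9% of all genes were, with medians over all genes of 0.008 and 0. At an unadjusted p under 0.05, 13 were lower and 3 higher in cKO Tregs, where 6.56% and 9.57% of all genes tested were, and 20 were lower and 1 higher in CD25lo Tregs, where 6.95% and 6.51% were. The difference between the cKO and CD25lo effects was called for 3 of the 42, where 1.03% of all genes tested were called, Ccnd2, Nop16 and Cdc25a, each with the higher cKO effect (adjusted p = 0.0133 to 0.0330 from limma), and its median was 0.16 beside 0.05 over all genes, with 30 of 42 above 0. The promoter E-box described above was found in 9 of the 34 genes of this list in the promoter table (26.5%), beside 8.09% of all genes in it. The list was drawn up as MYC targets, and the 8.09% covers genes expressed here or not, so these shares are a description only.

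The 5 that fell in cKO Tregs were Nop56, Npm1, Fbl and Pa2g4, which serve ribosome biogenesis, and Hspe1, a mitochondrial chaperonin. Nop56 averaged 4499 ± 233.3 normalized counts in the WT group (SD, n = 4) and 3460 ± 270.9 in the cKO group (SD, n = 5), for a log2 fold change of -0.38 (adjusted p = 0.0117 from limma). The gene that rose was Cdc25a, a phosphatase that drives entry into S phase, with 1322 ± 100.5 (SD, n = 5) over 817.2 ± 164.2 (SD, n = 4), a log2 fold change of 0.71 (adjusted p = 0.0042 from limma), which did not pass with sex as a term (0.75, adjusted p = 0.307 from limma). In CD25lo Tregs the calls with the smallest adjusted p were Nop16, a nucleolar protein, at 478.2 against 1110 normalized counts in CD25hi Tregs (log2 fold change -1.21, adjusted p = 0.0014 from limma), and Slc7a5, the large neutral amino acid transporter, at 1570 against 2736 (log2 fold change -0.80, adjusted p = 0.0118 from limma). Hk2, the hexokinase of the first step of glycolysis, had a larger log2 fold change of -1.59 (adjusted p = 0.0281 from limma), which 17 of 26 alternatives kept, and is named after its values were seen. Npm1, Fbl, Pa2g4 and Hspe1 are named because their count is small, after their values were seen.

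The cKO count of this list depended on the libraries. It was 5 without WT replicate 4 and 6 with the immediate early level as a term, but 0 among the 5 bulk libraries with an immediate early level above 13 (7 at an unadjusted p under 0.05) and 0 with sex as a term (8 at an unadjusted p under 0.05), all in limma. The share of all genes called lower also fell, from 1.48% to 0.24% in those 5 libraries and to 0.055% with sex as a term. The medians of the list were -0.13 and -0.17 in these settings. Left out in turn, cKO replicates 1 to 4 and WT replicates 1 to 3 each brought it to between 1 and 3. In CD25lo Tregs the count was 2 without CD25hi replicate 3, 4 without CD25lo replicate 1 and 2 without CD25lo replicate 2. It was 0 in limma when only those 5 libraries were fitted (19 at an unadjusted p under 0.05).

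**Figure D5:**
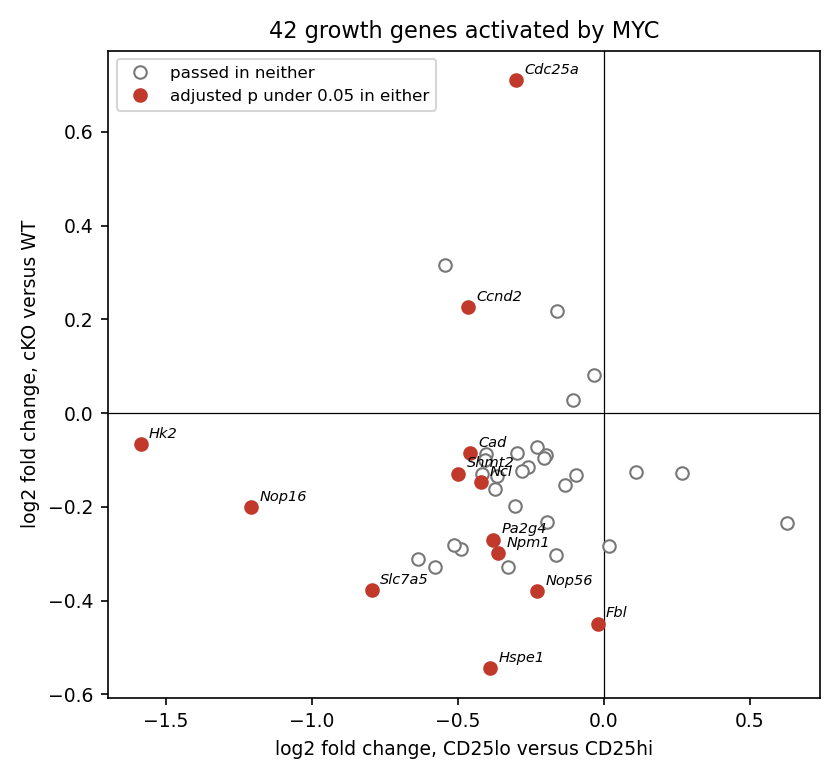
Log2 fold changes of 42 growth genes activated by MYC in CD25lo against CD25hi (horizontal axis) and cKO against WT Tregs (vertical axis), with filled and named points where limma gave an adjusted p under 0.05 in either comparison. Most points lie below and left of 0, with 36 negative in cKO and 38 negative in CD25lo Tregs, and Cdc25a stands at 0.71 on the vertical axis.

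Of 6 genes that MYC represses with MIZ1, 0 passed in cKO Tregs in limma, edgeR or DESeq2 (2 lower in limma at an unadjusted p under 0.05) and 1 fell in CD25lo Tregs. That gene was Ndrg1, a stress-responsive growth inhibitor, at 488.9 against 1026 normalized counts in CD25hi Tregs (log2 fold change -1.08, adjusted p = 0.0042 from limma). Of all genes tested, limma called 1.48% lower in cKO and 1.01% in CD25lo Tregs. The medians of the 6 genes were -0.37 and 0.22, beside 0.05 and 0 over all genes. Of the pair of MLX and MondoA targets, Txnip, an inhibitor of glucose uptake, fell in cKO Tregs from 21720 ± 1178 (SD, n = 4) to 17560 ± 1324 normalized counts (SD, n = 5), a log2 fold change of -0.31 (adjusted p = 0.0328 from limma). It did not pass with sex as a term or among the 5 bulk libraries with an immediate early level above 13, and 16 of 26 alternatives kept it. In CD25lo Tregs Txnip had a log2 fold change of 0.19 (adjusted p = 0.463 from limma), and Arrdc4 did not pass in either comparison, at -0.16 and -0.31.

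The genes whose pattern over the 14 libraries was most like each called member were ranked by the root mean square difference of their log2 values, each centred on its own mean, among 5829 genes with a mean of at least 1000 normalized counts. Closest to Myc were Treml2 (0.15), Tmem64 (0.17) and Aven (0.17), where Myc itself varied around its mean by 0.34. Closest to Mxd1 were Hsp90ab1 (0.29), Slc16a1 (0.29) and Jun (0.30), beside a variation of Mxd1 itself of 0.54. Jun is in the immediate early list above and Slc16a1, a lactate transporter, in the list of growth genes. In CD25lo Tregs Jun had a log2 fold change of 0.10, Hsp90ab1 of -0.26 and Slc16a1 of -0.33, beside -0.70 for Mxd1. Hsp90ab1, Slc16a1 and Jun did not pass in either comparison in limma. Closest to Mxd4 were Psmb8 (0.08), Zmiz2 (0.09) and Prmt1 (0.10), beside a variation of 0.15.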

How the data were processed

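RNA-seq of sorted Tregs was deposited for 14 libraries in 4 groups, taken from the sample labels. Single-end reads of 50 bases were aligned by the authors with STAR 2.7.2b (GRCm38). The signal deposited for each gene is its reads in a library over the DESeq2 1.24.0 size factor of that library, to 1 decimal (normalized counts). The tool that counted reads was not given in the sources used here. The authors also deposited stabilized log2 values, mean normalized counts, GC content as a percent, and for their own comparisons log2 fold changes, fold changes as a ratio and p-values, none of which was used.

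Limma-trend (limma 3.58.1, R 4.3.3) was fitted to log2(normalized count + 1) of the 14 libraries with a mean per group, for 16241 genes that reached 10 normalized counts in 2 libraries or more. The contrasts were cKO minus WT, CD25lo minus CD25hi and their difference, and calls were made under 0.05 after Benjamini-Hochberg adjustment over all genes tested. Whole reads were recovered for 99.97% to 100.0% of values per library (within 0.055 normalized counts) and used for edgeR 4.0.16 and DESeq2 1.42.0 as alternatives. Libraries held 30055573 to 35226685 reads in genes, and intervals come from the spread between libraries. The script was tested on simulated data. The bulk groups share replicate numbers 1 to 4, and same-numbered libraries did not deviate together.

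The members and lists were chosen with earlier results of these data known, so no test over a list was made. All members and network genes outside them are named, of each other list up to 4 genes with the smallest adjusted p in either comparison, and for each called member the 3 genes most like it. Of 8 Treg markers, 3 passed in cKO Tregs (2 higher) and 4 in CD25lo Tregs (all lower), and of 22 immediate early genes 1 passed in each comparison (Dusp2 and Nr4a3, both lower).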

Additional observations from a re-analysis of the deposited data

How the results depend on the processing

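The count of members called in cKO against WT Tregs was 1 in place of 2 with a pseudocount of 0.5, with no filter, with only those groups fitted, with sex as a term and with the replicate number as a block, and 1 to 2 without 1 library. In CD25lo against CD25hi Tregs it was 0 in place of 2 in limma with only those groups fitted and with the replicate block, and 0 to 3 without 1 library. For the difference it was 1 with DESeq2, with a mean of at least 100 normalized counts and with the immediate early level as a term. Over all genes, the cKO calls numbered 572, and 901 with DESeq2, 85 with the replicate block, 22 with sex as a term, 874 with the immediate early level as a term, 89 among the bulk libraries with a level above 13 (chosen after seeing the data) and 349 to 666 without 1 library. The CD25lo calls numbered 263, and 680 with DESeq2, 0 with only those groups fitted, 17 with the replicate block, 440 with the immediate early level as a term and 91 to 377 without 1 library. The cause of these shifts was not tested.

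Of 208 fold changes of members under alternatives, 191 in cKO Tregs kept their side of the threshold and 17 lost it, and in CD25lo Tregs 195 kept it, 10 lost it and 3 gained it, and no called value changed sign. The replicate block left Myc called in cKO Tregs (adjusted p = 0.0447 from limma) and ended the CD25lo calls of Myc (0.190) and Mxd4 (0.233) and the cKO call of Cdc25a (0.0650), and with it 1 growth gene activated by MYC fell in cKO and 0 in CD25lo Tregs. The labels name no pairing behind this block. Same-numbered bulk libraries correlated at -0.32 to -0.10 in their deviations from group means, and no bulk library correlated best with its own number. Whether CD25hi and CD25lo libraries of the same number came from the same mice is not given in the sources used here. Such correlations cannot tell, since the deviations of the 2 CD25lo libraries from their mean mirror each other. The ratio of Myc to its antagonists differed by -0.41 to -0.30 between cKO and WT Tregs and by -0.25 to -0.15 between CD25lo and CD25hi Tregs without 1 library. The settings that use length by the longest transcript and the counts of list genes under each setting were also added after seeing the data. With 2 CD25lo libraries, a member that did not pass there may differ by as much as its interval allows.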
